A study of Mus musculus with 4 samples.

Results

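Mediator, the nuclear RNA polymerases and the general transcription factors make up the core machinery of transcription. The genes taken here are the 81 protein-coding genes of the mouse RefSeq annotation named Med plus a number, or starting with Polr1, Polr2, Polr3, Gtf2 or Gtf3, out of 21887 protein-coding genes on the chromosomes of the table. They comprise 30 Mediator genes, 28 polymerase genes, 16 Gtf2 genes and 7 Gtf3 genes. They were chosen by name and not by any measured value, although earlier results of these data were known at that time. Accessible chromatin was measured at these genes by DNase-seq, in which the nuclease DNase I cuts open DNA and the cut ends are sequenced.

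The cells were lymphoid tissue inducer (LTi) cells, innate lymphoid cells that help to form lymphoid organs, sorted from the Peyer's patches of C57BL/6 mice. There were 2 libraries from mice labelled Tcf7-KO, in which Cre recombinase deletes a floxed Tcf7, the gene of the transcription factor TCF-1, and 2 from mice labelled Tcf7+/+. The gate took lineage-negative CD127+ CCR6+ cells without KLRG1, NK1.1 or NKp46, and each library started from 300 cells digested for 5 minutes by 0.3 U of the enzyme. The sources used here give neither the age nor the sex of the mice, nor any pooling of animals. The analysed table lists 16584 islands, which are broad enriched regions, each with reads counted for a peak side and for a control side. Its headers name no library, so neither side can be tied to a genotype, the mutant and wild-type mice are not compared, and no value has a replicate error.

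RNA polymerase I makes the large ribosomal RNA precursor, RNA polymerase II makes messenger RNA, and RNA polymerase III makes transfer RNA, 5S ribosomal RNA and other small RNAs. The general factors TFIIA, TFIIB, TFIIE, TFIIF and TFIIH place RNA polymerase II at a promoter and open the DNA. The Gtf2 names also cover the TFII-I family, whose products are DNA-binding factors outside that set. TFIIIA and TFIIIC, the Gtf3 products, bind the genes of RNA polymerase III. Mediator bridges gene-specific activators and RNA polymerase II through its head, middle and tail modules and the backbone subunit Med14, and a separable kinase module can bind it. Every nucleated cell needs most of these proteins, so their genes are known for promoters that are open in most tissues.

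The windows around 7 start sites are shown, of which all but the last lay at a start inside an island. Each is the RefSeq window of 300 bases (build GRCm38.p6, the assembly that mm10 names), from 250 bases before the annotated start site to its first 50 transcribed bases, written 5′ to 3′ along the gene. Capitals mark matches, on either strand, to the GC box (GGGCGG), the ETS motif (CCGGAAG), the CCAAT box of NF-Y and the TATA box (TATAAA). Polr2a is shown as the gene of the largest polymerase II subunit and Gtf2a1 as the gene whose island held the most peak-side reads of any member island. Med29 had the lowest false discovery rate among start-site islands, Med15 had the largest fold among them, Polr3g and Polr3gl are paralogs, and Med25 had no island.
Polr2a, chr11:69758584-69758883, minus strand: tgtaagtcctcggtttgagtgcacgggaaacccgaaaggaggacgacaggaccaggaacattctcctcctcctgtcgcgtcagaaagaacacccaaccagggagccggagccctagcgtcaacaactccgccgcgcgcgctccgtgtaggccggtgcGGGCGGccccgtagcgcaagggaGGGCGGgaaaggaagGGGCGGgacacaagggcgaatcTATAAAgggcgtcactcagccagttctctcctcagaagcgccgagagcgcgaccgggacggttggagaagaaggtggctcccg
Gtf2a1, chr12:91590438-91590737, minus strand: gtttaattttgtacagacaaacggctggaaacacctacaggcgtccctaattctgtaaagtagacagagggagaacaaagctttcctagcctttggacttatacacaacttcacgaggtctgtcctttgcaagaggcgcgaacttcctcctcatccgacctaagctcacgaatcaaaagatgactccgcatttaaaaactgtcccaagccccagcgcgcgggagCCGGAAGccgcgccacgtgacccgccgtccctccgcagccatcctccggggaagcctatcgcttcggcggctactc
Med29, chr7:28392641-28392940, minus strand: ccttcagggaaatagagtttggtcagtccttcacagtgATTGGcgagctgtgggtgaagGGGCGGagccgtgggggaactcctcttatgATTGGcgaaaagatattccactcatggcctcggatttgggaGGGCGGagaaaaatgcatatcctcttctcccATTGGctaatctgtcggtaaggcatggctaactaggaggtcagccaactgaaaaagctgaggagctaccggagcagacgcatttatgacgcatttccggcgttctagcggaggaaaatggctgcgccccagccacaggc
Med15, chr16:17722898-17723197, minus strand: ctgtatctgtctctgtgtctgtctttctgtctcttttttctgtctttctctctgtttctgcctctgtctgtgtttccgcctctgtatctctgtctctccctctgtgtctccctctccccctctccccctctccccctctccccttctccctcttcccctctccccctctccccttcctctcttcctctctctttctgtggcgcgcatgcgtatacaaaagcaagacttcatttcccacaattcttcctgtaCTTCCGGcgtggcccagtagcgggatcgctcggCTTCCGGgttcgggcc
Polr3g, chr13:81710964-81711263, minus strand: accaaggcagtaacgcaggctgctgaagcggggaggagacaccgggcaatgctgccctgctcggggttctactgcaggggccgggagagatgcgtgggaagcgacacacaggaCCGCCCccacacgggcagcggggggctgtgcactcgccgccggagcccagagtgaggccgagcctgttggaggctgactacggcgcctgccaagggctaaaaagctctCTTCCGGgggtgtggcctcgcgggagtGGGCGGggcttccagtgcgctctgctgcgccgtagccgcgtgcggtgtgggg
Polr3gl, chr3:96594132-96594431, minus strand: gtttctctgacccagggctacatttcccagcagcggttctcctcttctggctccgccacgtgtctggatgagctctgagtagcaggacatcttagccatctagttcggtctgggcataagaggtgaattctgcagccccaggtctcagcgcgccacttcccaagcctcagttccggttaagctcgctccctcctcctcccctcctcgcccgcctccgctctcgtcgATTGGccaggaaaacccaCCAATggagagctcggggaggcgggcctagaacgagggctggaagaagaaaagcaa
Med25, chr7:44892375-44892674, minus strand: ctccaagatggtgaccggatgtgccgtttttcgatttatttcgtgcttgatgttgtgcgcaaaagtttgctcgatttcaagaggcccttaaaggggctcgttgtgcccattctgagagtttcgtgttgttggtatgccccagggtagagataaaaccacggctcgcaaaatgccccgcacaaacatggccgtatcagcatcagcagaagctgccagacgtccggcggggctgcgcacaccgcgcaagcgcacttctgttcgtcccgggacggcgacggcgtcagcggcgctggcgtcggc
The Polr2a window holds 3 GC boxes and a TATA box whose letters run from 33 to 28 bases before the start site. The Gtf2a1 window has a single ETS match 26 to 20 bases before the start, and the Med15 window has 2, both downstream of the start shown. Polr3g has 2 GC boxes and an ETS match, whereas Polr3gl has 2 CCAAT boxes and neither of these. No searched motif lies in the Med25 window.

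Nearly all of these genes had an island. Of the 81 genes, 78 (96.3%) had an island whose nearest protein-coding gene end, within 50 kb, was theirs, against 53.9% of all protein-coding genes (11788 of 21887). By class, islands were found at 29 of 30 Mediator genes, all 28 polymerase genes, 15 of 16 Gtf2 genes and 6 of 7 Gtf3 genes. Within Mediator, these were 11 of 11 head genes, 9 of 9 middle genes, the backbone gene, 4 of 5 tail genes and 4 of 4 kinase module genes. An end shared with a neighbour counts for both genes here, and 22 members had only such shared islands. When islands were assigned from their centre, 65 members had an island, against 49.3% of all genes.

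The 3 genes without an island were Gtf2a1l, Gtf3c3 and Med25. Gtf2a1l, a testis-expressed relative of the TFIIA subunit gene Gtf2a1, lay 67.3 kb from the nearest island. Gtf3c3, a TFIIIC subunit gene, lay 13.3 kb from an island at Ccdc150 with 11 peak-side and 9 control-side reads. Med25, which encodes a tail subunit that activators bind, lay 2.10 kb from an island at Fuz with 28 peak-side and 28 control-side reads. The lowest peak-side count in the whole table is 8, so the lack of an island leaves a gene's openness undetermined.

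The 97 islands of the 78 genes lay mostly at gene ends. Of them, 80 (82.5%) lay within 1 kb of the end of a member, against 55.7% of all islands within 1 kb of a gene end. A further 11 lay elsewhere within a member, 5 between genes and 1 within another gene. Start sites could be placed for the 70 members with a RefSeq start window, and in 65 of them (92.9%) a start site lay inside an island, against 46.3% of 17492 protein-coding genes. The 5 others were Gtf2a1l, Gtf3c3, Med25, Gtf2ird1 and Med1. A Med1 island had its nearest edge 95 bases upstream of the RefSeq start site and covered the upstream outer end of the gene. Islands that held a start reached a median of 1.03 kb upstream (interquartile range 0.494 to 1.46) and 0.798 kb downstream (0.509 to 1.28), and the upstream part was the longer in 38 of 65.

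**Figure D1:**
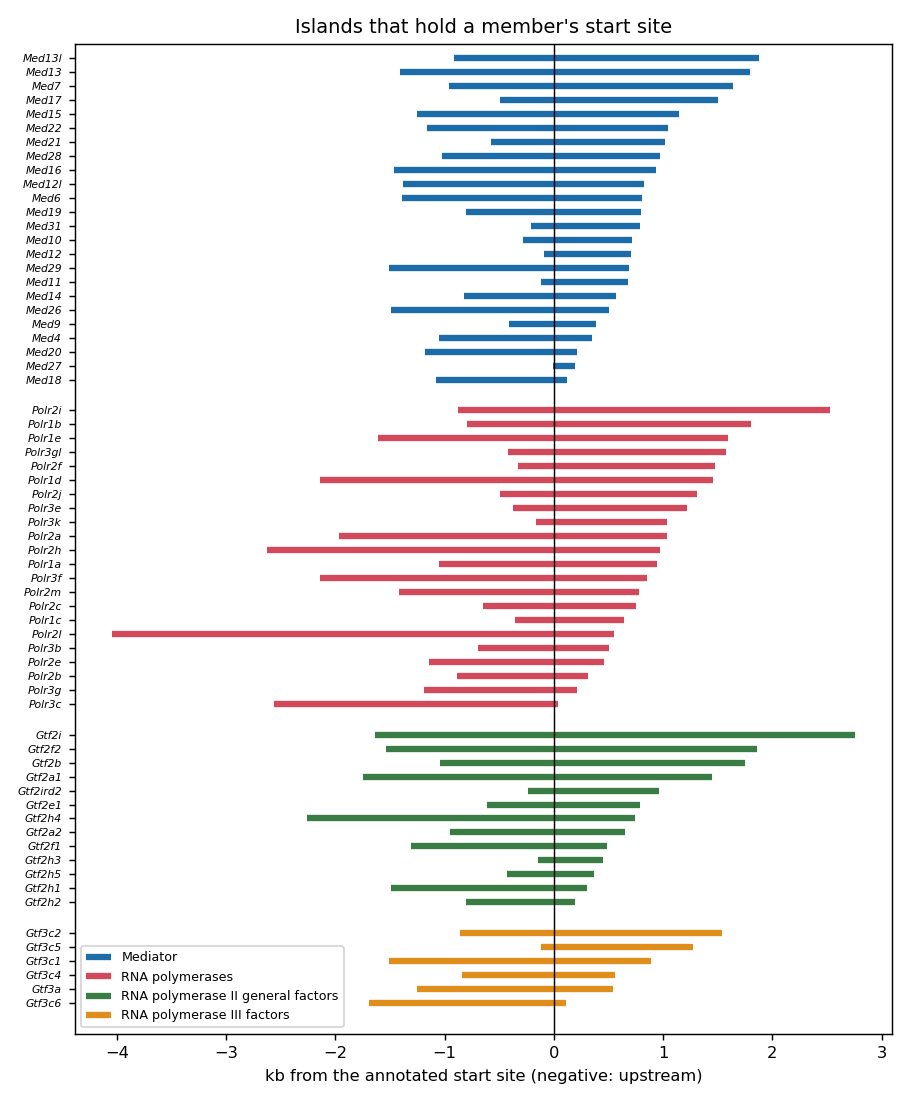
Horizontal bars show the extent of the island that holds the annotated start site of each member, in kb from that site along the gene, coloured by family. Of 70 members with a start window 65 are drawn, and the upstream part of the island is the longer in 38 of them.

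Many of these start sites were shared with a neighbour. Of the 65 members whose start lay in an island, 20 (30.8%) had the start of another protein-coding gene on the opposite strand within 1 kb, against 18.6% of the 8102 protein-coding genes whose start lay in an island. Polr1c and Yipf3 start 35 bases apart, Gtf2h3 and the translation initiation factor gene Eif2b1 17 bases apart, and Med22 and the ribosomal protein gene Rpl7a 165 bases apart. Med29 lies opposite Paf1, whose product is a subunit of an elongation complex that travels with RNA polymerase II, at a distance of 306 bases. Among the 80 gene-end islands, 30 (37.5%) had the end of another gene within 1 kb, against 20.8% of all gene-end islands. The shares are not matched, since an island at several gene ends has more chances to be a member's. The 20.8% counts each island once, and no matched share was computed. These 30 islands held a median of 30.5 peak-side and 50 control-side reads, and the 50 others held 22 and 33. In the rest of the table the same medians were 26 and 42 at shared gene ends, and 22 and 36 at single ones. Reads at a shared island cannot be divided between its genes.

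The 6 shared islands with most peak-side reads were those of Polr2a with Slc35g3, Polr1d with Lnx2, Polr3g with Mblac2, Polr2h with Clcn2, Polr2b with Noa1 and Med29 with Paf1. They held from 45 to 58 peak-side reads. At Polr2i, which encodes a small subunit of RNA polymerase II, the island touched the ends of 3 genes, with Ovol3 and Tbcb as the others.

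In reads, the members resembled other gene-end islands. The median member island held 23 reads on the peak side, with quartiles at 15 and 30. On the control side it held 35, with quartiles at 24 and 51, and the whole table had medians of 18 and 27. At gene ends alone the medians were 25 and 39 for members, against 23 and 37 for the rest of the table. Islands rich in peak-side reads were also rich in control-side reads (Spearman rho 0.880 over 97 member islands, against 0.837 over all 16584). These values are a description, since all islands come from the same libraries. Peak-side reads ranged from 8 in an island within Med12 to 74 at Gtf2a1, whose island ranked 143rd of 16584. Control-side reads ranged from 3 in an island within Gtf2i to 118 at Gtf2a1.

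**Figure D2:**
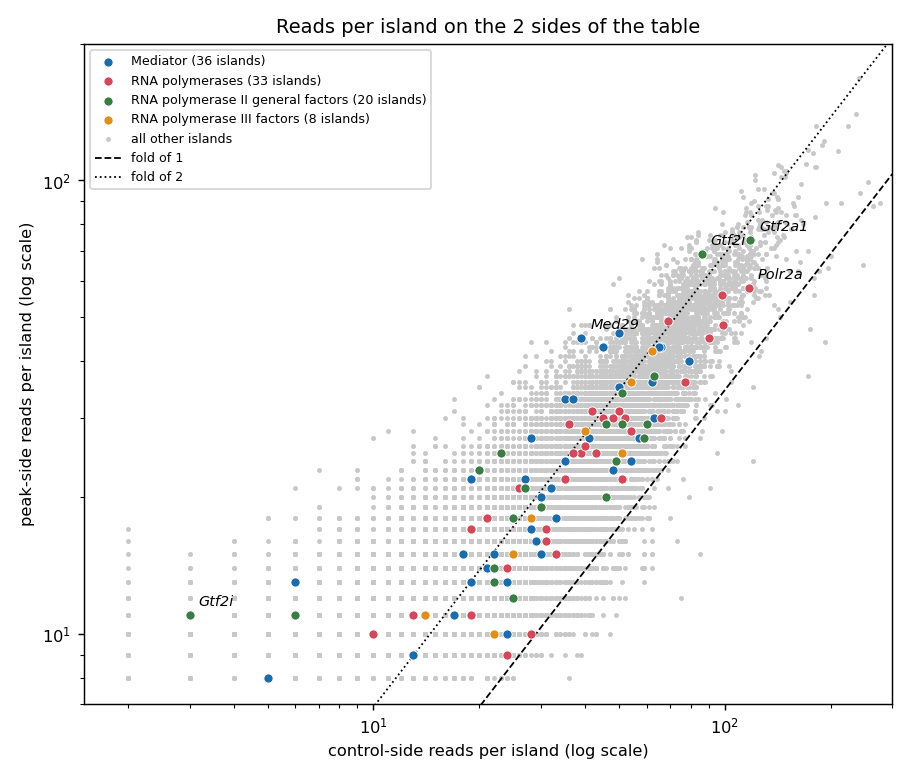
Each point is an island, with control-side reads across and peak-side reads upward, both on log scales. Member islands are coloured by family, all other islands are grey, and 51 islands beyond the axes are not drawn. The dashed and dotted lines mark folds of 1 and 2, and the 97 member islands lie above the line of a fold of 1.

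The fold is peak-side reads divided by scaled control-side reads, with 0.345 as the scaling factor of the deposited table. Each fold was recomputed from the reads and is given with an exact (Clopper-Pearson) 95% interval that covers counting error only. All 97 member islands had a fold over 1, as did 98.3% of all islands. Their median fold was 1.86, against 2.01 in all islands. At gene ends it was 1.83 for members and 1.86 for the rest of the table. In the authors' deposited table, 81 of the 97 islands (83.5%) had a false discovery rate (FDR) under 0.05, against a background of 82.3% of all islands, so the share called was near the background. At gene ends alone it was 66 of 80 (82.5%), against 80.8%. In the authors' deposited table an FDR under 0.01 was reached by 58 member islands (59.8%), against 64.2% of all islands. Among islands of at least 20 peak-side reads, 52 of 59 member islands had an FDR under 0.05 in the authors' deposited table, against 89.9% of all such islands. A fold over 2 was found in 31 member islands (32.0%) and in 50.4% of all islands. With the control side scaled by the reads in all islands, 42 of 97 member islands (43.3%) had a fold over 1, against 55.7% of all islands. With that scaling 4 member islands passed the FDR, against 9.19% of all islands.

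The Mediator islands had a pooled fold of 1.97 (1.81 to 2.15, 860 and 1264 reads), and the polymerase islands 1.67 (1.54 to 1.82, 864 and 1497 reads). The intervals overlap narrowly, and they hold no replicate error. The Gtf2 islands had a pooled fold of 1.88 (1.68 to 2.10) and the Gtf3 islands 1.81 (1.50 to 2.19), and both intervals overlap those of the other families. At gene ends alone the pooled folds were 1.95 (1.78 to 2.13) for Mediator and 1.67 (1.53 to 1.82) for the polymerases. They were 1.74 (1.52 to 1.99) for the Gtf2 genes and 1.83 (1.50 to 2.23) for the Gtf3 genes. The Gtf2 value at gene ends holds no island of the TFII-I family, whose islands had a pooled fold of 2.25 (1.84 to 2.75).

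**Figure D3:**
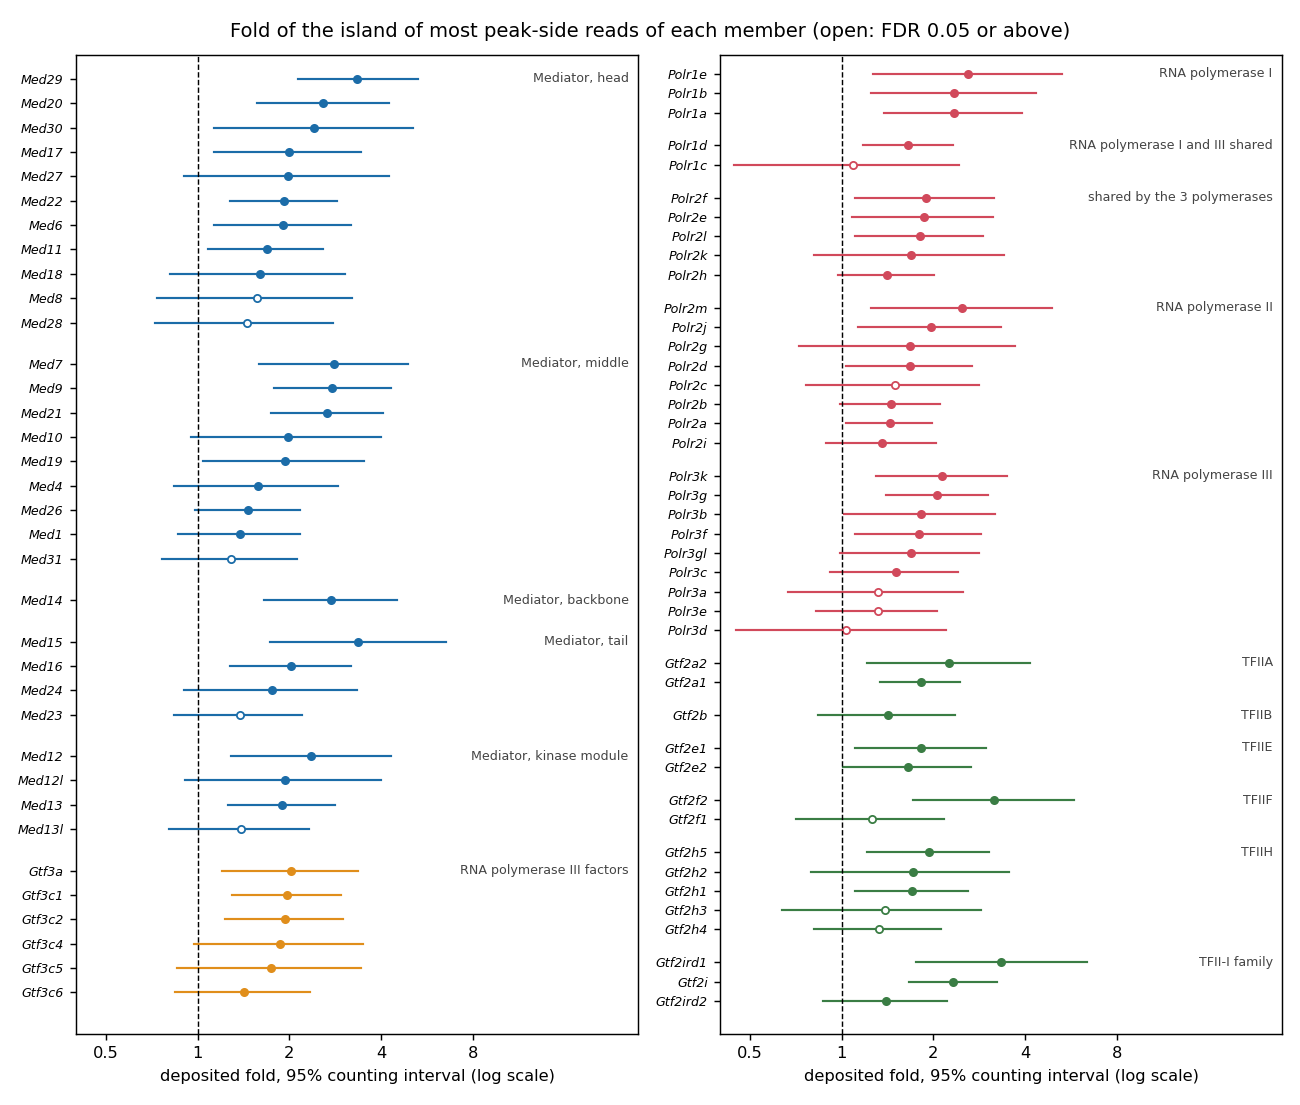
Points give the fold of the island with most peak-side reads of 77 of the 78 members with an island, on a log axis, with lines for the 95% counting interval and classes set apart by gaps. Open points are the 13 islands with an FDR of 0.05 or above in the authors' deposited table, and the dashed line marks a fold of 1.

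In the Mediator head, which contacts RNA polymerase II, folds of the leading islands ran from 1.45 (0.725 to 2.78) at Med28 to 3.35 (2.13 to 5.28) at Med29. The Med29 island had 45 peak-side and 39 control-side reads, and its FDR of 3.44e-10 in the authors' deposited table was the lowest of all member islands. It covered the Med29 start site printed above and reached the end of Paf1. A further Med29 island, 954 bp from the other end of the gene, held 9 and 13 reads. Med20, whose island also holds the ends of Bysl and Gm20517, had 33 and 37 reads, a fold of 2.59 (1.57 to 4.25). Med22 had 43 and 65 reads and Med11 had 36 and 62, with folds of 1.92 (1.27 to 2.86) and 1.68 (1.08 to 2.58). Across the 11 head genes, all intervals overlap.

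In the middle module, Med21, an essential small subunit, had the single island with most peak-side reads at 46, with 50 on the control side and a fold of 2.67 (1.75 to 4.06). Med7 had 27 and 28 reads, which gave a fold of 2.80 (1.59 to 4.92). Med9 had 2 islands. That over its start held 21 and 32 reads, and that over its other end, shared with the Ras-related gene Rasd1, held 43 and 45 reads with a fold of 2.77 (1.78 to 4.31). Med31 stood low at a fold of 1.29 (0.762 to 2.12) from 24 and 54 reads. Med1, the subunit that nuclear receptors bind, had 10 and 24 reads beside its RefSeq start site, over the upstream end of the gene. The fold there was 1.21 (0.516 to 2.62). The other Med1 island, 4400 bp wide, lay over the far end of the gene and the end of Fbxl20, with 30 and 63 reads. Med10 had a single island of 15 and 22 reads, 5502 bp from the nearest outer end of the gene, and it held a start site annotated within the gene.

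Med14, the X-linked backbone gene, had 33 and 35 reads, giving a fold of 2.73 (1.65 to 4.53). In the tail, Med15, which encodes a subunit bound by several activators, had 22 and 19 reads. Its fold of 3.36 (1.73 to 6.56) was the largest of any member island at a gene end. Med16 had 35 and 50 reads at its start and 13 and 6 reads within the gene, where the fold was 6.28 (2.23 to 20.2). Med23 had 27 and 57 reads with a fold of 1.37 (0.835 to 2.21), and Med24 had 9 and 13 reads at a gene end with 17 and 28 within the gene.

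The kinase module genes come as paralog pairs, and each of the 4 genes had an island over its start site. Med12 had 22 and 27 reads at its start and Med12l had 14 and 21, with folds of 2.36 (1.28 to 4.31) and 1.93 (0.909 to 3.99). Med13 had 43 and 66 reads at its start and Med13l had 23 and 48, with folds of 1.89 (1.26 to 2.82) and 1.39 (0.807 to 2.33). The intervals overlap within each pair. A further Med12 island, 11.1 kb into the gene, held 8 and 5 reads, a fold of 4.64 (1.34 to 18). A further Med13 island, 38.2 kb beyond the gene, held 11 and 17 reads. It was among the farthest within the limit of 50 kb, with a Gtf3a island at 42.5 kb, and the nearest left out lay 81.5 kb from Med13l with 11 and 15 reads.

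Each of the 3 genes of RNA polymerase I alone had 1 island, which held its start site. Polr1a, the gene of the largest subunit, had 29 and 36 reads, Polr1b had 21 and 26 and Polr1e had 17 and 19. Their folds were 2.34 (1.38 to 3.92), 2.34 (1.25 to 4.33) and 2.60 (1.27 to 5.27), and the pooled fold was 2.4 (1.71 to 3.36). The 8 genes of RNA polymerase II alone had a pooled fold of 1.53 (1.31 to 1.78) over 9 islands, and these intervals overlap. Polr2a had a fold of 1.44 (1.03 to 1.99) from 58 and 117 reads, and Polr2b, the gene of the next largest subunit, had 45 and 90 reads at its start and a fold of 1.45 (0.991 to 2.10). Both were rich in reads on either side and had folds below the table's median. A further island of Polr2b, 5.27 kb from its end and within another gene, had 22 and 51 reads and the smallest fold of the class, 1.25 (0.723 to 2.10). Polr2i had 36 and 77 reads with a fold of 1.36 (0.887 to 2.04). Polr2m, which encodes a protein associated with the polymerase, had 18 and 21 reads and the largest fold of the class at 2.49 (1.25 to 4.90).

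The subunits shared among polymerases had islands throughout. Polr1c and Polr1d, common to RNA polymerases I and III, differed widely in reads, with 9 and 24 at Polr1c against 56 and 98 at Polr1d. Their islands also differed in width, with 1000 bp at Polr1c and 3600 bp at Polr1d. Per kb, the reads were 9 and 24 at Polr1c against 15.6 and 27.2 at Polr1d. The Polr1c fold was 1.09 (0.445 to 2.42) and that of Polr1d was 1.66 (1.17 to 2.32). Among the 5 genes of subunits common to all 3 polymerases, Polr2h had 48 and 99 reads and the smallest fold, 1.41 (0.975 to 2.00). Polr2l, which encodes one of the smallest subunits, had 30 and 48 reads in the widest of these islands, 4600 bp, which reached upstream over the start of Tspan4. Polr2e had 25 and 39 reads over its start and 19 and 30 over its other end. All 6 islands of this class had an FDR under 0.05 in the authors' deposited table, as did 82.3% of all islands.

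The 10 RNA polymerase III genes had 13 islands and a pooled fold of 1.73 (1.50 to 1.99). Polr3g and Polr3gl encode alternative forms of the same subunit, and both had an island over the start sites printed above. Polr3g had 49 and 69 reads, for a fold of 2.06 (1.40 to 3.01). Polr3gl had 25 and 43 reads at its start and a fold of 1.69 (0.987 to 2.82), with 17 and 31 reads over its other end and 11 and 13 within the gene. The intervals overlap. Polr3k, with 31 and 42 reads, had the fold 2.14 (1.30 to 3.49). Polr3e had 30 and 66 reads with a fold of 1.32 (0.826 to 2.06), and Polr3d had 10 and 28 reads with a fold of 1.04 (0.449 to 2.20), the smallest of all member islands.

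Among the general factors of RNA polymerase II, the TFIIA gene Gtf2a1 had a fold of 1.82 (1.34 to 2.45) and Gtf2a2 one of 2.26 (1.21 to 4.14) with 21 and 27 reads. Gtf2b, which encodes TFIIB, had 24 and 49 reads. Its FDR of 0.0468 in the authors' deposited table lay just inside the threshold, while that of Med8, 0.0519, lay just outside. The TFIIE genes Gtf2e1 and Gtf2e2 had 29 peak-side reads each, with 46 and 51 control-side reads. The TFIIF genes had unlike folds. Gtf2f2 reached a fold of 3.15 (1.72 to 5.81) with 25 and 23 reads, against 1.26 (0.707 to 2.17) with 20 and 46 reads at Gtf2f1, with overlapping intervals. The TFIIH genes had a pooled fold of 1.67 (1.35 to 2.06), with Gtf2h1 at 37 and 63 reads and Gtf2h5 at 34 and 51. Gtf2h4 had 18 and 25 reads at its start and 27 and 59 over its other end, which Vars2 shares.

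By the limit of 1 kb, the TFII-I family differed from the other classes in where its islands lay. Gtf2i, Gtf2ird1 and Gtf2ird2 lie close together on chromosome 5, with Ncf1 between Gtf2ird2 and Gtf2i, and encode related DNA-binding factors. Their 7 islands all lay over 1 kb from the outer ends of the genes, although 2 held annotated start sites. These 2 lay 1278 bp (Gtf2i) and 1244 bp (Gtf2ird2) from an outer end, and a further Gtf2i island lay 1632 bp away. With a limit of 2 kb, these islands would count as lying at a gene end. The start-site island of Gtf2i (134312001 to 134316400) had 69 and 86 reads, a fold of 2.33 (1.67 to 3.23), and that of Gtf2ird2 had 29 and 60 reads, a fold of 1.40 (0.868 to 2.22). Within Gtf2i, with nearest edges between 40.2 and 46.8 kb downstream of its start, 3 islands held 11 and 3, 14 and 22, and 11 and 6 reads. Their folds were 10.6 (2.81 to 59.4), 1.85 (0.873 to 3.77) and 5.32 (1.80 to 17.5), and the first was the largest of all member islands, ranking 90th in the table. Gtf2ird1 had no island over its start, and its island 18.9 kb into the gene held 23 and 20 reads, a fold of 3.34 (1.75 to 6.40). The last Gtf2i island lay between Ncf1 and Gtf2i and was 4600 bp wide, with 19 and 30 reads. In the authors' deposited table, all 7 had an FDR under 0.05, as did 84.2% of the other islands away from gene ends.

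**Figure D4:**
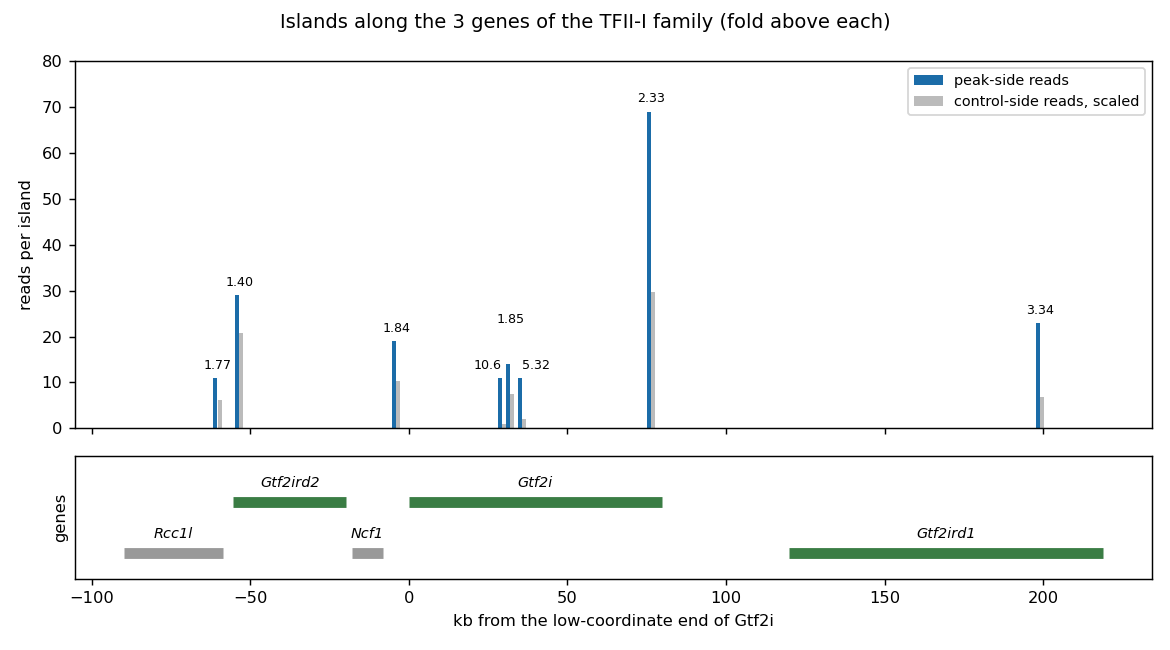
The upper part shows peak-side reads (blue) and control-side reads after scaling (grey) of each island around the 3 TFII-I family genes, with the fold printed above, against the distance in kb from the low-coordinate end of Gtf2i. The lower part shows the protein-coding genes, and the 3 islands near 30 kb lie within Gtf2i.

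The TFIIIA gene Gtf3a had 28 and 40 reads over its start and a fold of 2.03 (1.21 to 3.37). The largest TFIIIC subunit gene, Gtf3c1, had 42 and 62 reads over its start and a fold of 1.96 (1.30 to 2.95), with a further 11 and 14 reads in an island 1.75 kb beyond its far end. Gtf3c2 had 36 and 54 reads with a fold of 1.93, and Gtf3c6 had 25 and 51 with a fold of 1.42 (0.844 to 2.34). Gtf3c4 and Gtf3c5 had 18 and 28 and 15 and 25 reads.

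Away from start sites the member islands were sparser in reads. In members with a start window, 65 islands held a start and 19 did not, with medians of 26 and 13 peak-side reads and of 40 and 22 control-side reads. In the rest of the table, 7378 islands held a protein-coding start and 9109 did not, with medians of 24 and 14 peak-side reads. A fold over 2 was found in 19 of the 65 member islands with a start (29.2%), against 38.7% of such islands in the rest of the table. Without a start it was found in 9 of the 19 member islands (47.4%), against 60% in the rest.

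The start windows of members were searched for 7 motifs on both strands. Of the 79 member windows (70 genes), 26 (32.9%) held the ETS motif CCGGAAG, against 21.1% of the 9522 windows whose start lay in an island and 11.6% of all 21263 protein-coding windows. The GC box GGGCGG was in 59.5% of member windows, 70.5% of windows in islands and 46.2% of all windows. CCAAT was in 30.4% of member windows, against 39.1% and 38.2%. TATAAA was in 8 member windows (10.1%), against 5.62% and 12.6%. The matches nearest upstream of a start were those of Polr2a, from 33 to 28 bases before it, and Med28, from 61 to 56. The YY1 motif ATGGCGGC was in 4 member windows (5.06%), against 5.80% of windows in islands and 3.02% of all windows. The TCF/LEF motif CTTTGAT was in 3 (3.80%; Gtf2b, Med19 and Polr2m), against 2.35% and 3.22%. The NRF1 motif was in none, against 2.58% and 1.33%. A CCAAT match overlapped a TATAAA match in 1 member window and a CTTTGAT match in 1. The median GC content was 59.0% in member windows, 62.3% in windows in islands and 56.3% in all windows, and the median number of CG dinucleotides was 22, 23 and 13. These matches describe letters and show no binding.

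**Figure D5:**
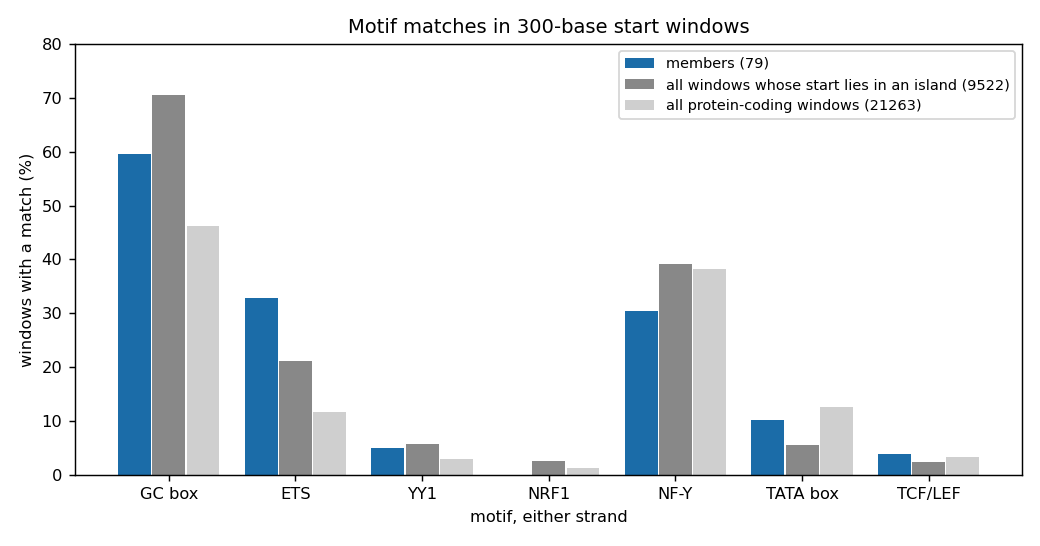
Bars give the percentage of 300-base start windows with a match to each motif on either strand, for 79 member windows, 9522 protein-coding windows whose start lies in an island and all 21263 protein-coding windows. The ETS motif is in 32.9% of member windows and 21.1% of windows in islands, and the GC box in 59.5% and 70.5%.

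Other genes of the same machinery also had islands. Of 56 such genes not named by the rule, 54 had an island, against 53.9% of all protein-coding genes, and Taf1b and Snapc4 had none. Of their 69 islands, 59 (85.5%) had an FDR under 0.05 in the authors' deposited table, near the background of 82.3%. All 15 TFIID genes and all 5 remaining TFIIH genes had an island, among them the helicase gene Ercc3 at a fold of 4.59 (2.12 to 10.4) from 19 and 12 reads. Ccnc and Cdk19, which encode the cyclin and a kinase of the Mediator kinase module, had folds of 3.48 (1.84 to 6.64) and 2.38 (1.73 to 3.28). Cdk8, the gene of the other kinase, had 2 islands. Together they held 171 and 459 reads, a pooled fold of 1.08 (0.901 to 1.29). Most of these reads lay in 1 island, with 149 and 439 reads and the smallest fold of the 69 islands, 0.984. The pooled fold therefore does not stand for each Cdk8 island, and 1 of the 2 had an FDR under 0.05 in the authors' deposited table. Crcp, which encodes a further RNA polymerase III subunit, had 21 and 20 reads.

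Among markers of the sorted cells, 10 of 11 LTi and ILC3 genes had an island, against 53.9% of all protein-coding genes. Ccr6, a gene of the gate, had none. Of other cell types, 1 of 5 T cell genes (Cd3d), 1 of 4 B cell genes (Pax5), none of 4 myeloid genes and all 4 epithelial and stromal genes had an island. The part of such cells in the values above was not tested.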

How the data were processed

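DNase-seq reads of 4 libraries (2 Tcf7-KO, 2 Tcf7+/+) are represented by 1 table. The tools named are Bowtie2 2.4.2 and SICER 2.0, with build mm10, per the submitters' processing notes, and island widths are multiples of 200 bp. The authors deposited unnormalized read counts per island for a peak side and a control side, and per the file headers a p-value, an FDR (q-value) and a fold (ratio). For all 16584 islands the deposited fold and p-value were recovered from the counts (tolerance 1e-06) with a control factor of 0.345, which stands for a control side 2.90 times the size of the peak side. The table is not filtered on FDR. The sources used here give no library totals.

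Each island went to the protein-coding gene with the nearest end (RefSeq, GRCm38.p6) within 50 kb. Where ends of several genes tied, mostly because an island overlapped them all, the island counts for each. Start sites came from RefSeq start windows, with which 70 of 81 members matched. Of these, 9 have 2 windows, and every window was searched. Without molecular identifiers, reads are not independent molecules, so intervals cover counting error only. The planned test of Tcf7-KO against control was not run, since no column is tied to a library. Counts and medians are descriptions, with no test between classes. Members, classes, motifs and lists were chosen with earlier results of these data known. Named islands are the richest in peak-side reads of each class, the 6 largest and 6 smallest folds among the 65 member islands at or above the table's median of 18 peak-side reads, islands over 4 kb, genes with 2 or more islands or none (1 such gene and 1 marker are not reported here), and the 6 richest shared ends. Others are named to complete a class. Assignment and intervals were checked on simulated data (Python 3.11.15, pandas 2.3.3, scipy 1.17.1). Alternatives were other distances, read minimums, scalings and FDR thresholds.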

Additional observations from a re-analysis of the deposited data

How the results depend on the processing

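The number of members with an island was 77 within 10 kb and 74 within 1 kb, in place of 78 of 81. Of all genes, these limits gave 51.2% and 46.1%, in place of 53.9% within 50 kb. The number of members was 78 with islands in or within 1 kb of the gene. With at least 20 peak-side reads it was 57, against 33.7% of all genes. It was 56 when islands tied between genes were left out, against 43.9% of all genes, an alternative that, like assignment from the island centre, was added after seeing the data. Scaling the control side by the reads in all islands left 4 member islands past the FDR in place of 81 and put the median fold at 0.973 in place of 1.86. By construction, the whole table then pools to a fold of 1. The 4 islands were those of Med29 at its start, Med16 within the gene and 2 within Gtf2i. An FDR under 0.01 left 58. With at least 20 peak-side reads 52 of 59 passed, against 89.9% of all such islands, since fewer islands were counted. Other median folds ran from 1.82 to 1.89. Per kb of island, the median was 13.1 peak-side and 21.7 control-side reads. No paired analysis was possible because no column is tied to a library or replicate number, and leaving out a library, the replicate block and other count models were not run for the same reason. Low counts limit the folds to wide intervals, above all in islands of 8 to 20 peak-side reads.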
